A study of Mus musculus with 20 samples.

Results

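Histone genes of the Hist1h, Hist2h and Hist3h families were followed across the development of the mouse habenula, a paired cell group of the dorsal diencephalon that links forebrain and midbrain. All rows of the deposited count table with such a symbol were taken, and those with at least 20 counts summed over the kept wells were described. This left 26 of 63 such rows, in a table of 37994 genes. The 37 rows under the minimum held together 284 counts, or 2.13% of all counts in the 63 rows. Hist1h3a, Hist1h2ak and Hist1h2bj lay just inside the minimum with 20 counts each, and Hist1h3h with 18 and Hist1h3e and Hist3h2bb-ps with 17 each lay just outside. The 26 genes code for the linker histone H1 (3 genes), the core histones H2A (8), H2B (6), H3 (5) and H4 (4).

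Cells had been placed 1 per well in 384-well plates and read with CEL-seq2, which primes with poly-T, tags each molecule with a 6-base unique molecular identifier and reads the 3′ part of transcripts. A first set of 15 plates came from the Brn3a-tauLacZ mouse line, in which tau-LacZ reports on the Brn3a gene (Pou4f1, a transcription factor of habenula neurons). It held 2 plates for each of embryonic days E11, E13, E15 and E18, postnatal days P4 and P7 and adult mice, and a single plate for E12. Another 5 plates, the second set, were of C57BL/6 embryos at E18, with tables of their own, with 2 plates of the left habenula, 2 of the right and 1 of both sides (the title of that plate reads E1, its other labels E18). Every plate of the first set carried the reporter line. The sources used here do not give its genotype, the adults' age, the sex and number of animals or any sorting of cells. Nothing says that the plates of a stage came from different animals, so the p-values measure the spread between these plates.

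After wells with under 1000 counts outside spike-in and mitochondrial rows, under 500 genes or over 20% mitochondrial counts were left out, 3729 wells of the first set and 1082 of the second remained. No well name occurred more than once. The plates kept between 54 and 345 wells and between 758697 and 7760372 counts. Levels are given as CPM, counts per 1000000 of all counts but spike-ins. They are not divided by gene length, since each molecule is counted once, at its 3′ part. A list of 10 habenula neuron markers, with Pou4f1 first, summed to between 395 and 7888 CPM on the 20 plates. Plate 2 at E13 stood apart, with 57.7% of its wells in the G2/M class defined below and 3 noncycling wells. It also held 3829 CPM of a list of ependymal or choroid plexus markers and 1119 CPM of a vascular list, against 13.1 and 226 CPM on plate 1 at E13. Plate 1 at E18 had 4422 CPM of a list of progenitor markers against 295 CPM on plate 2. Plate 1 of the adult kept 56 wells, with a median mitochondrial share of 11.9%.

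Replication-dependent histone genes are expressed mainly while a cell copies its DNA, when new chromatin needs new histones. They have no introns, lie in clusters with many near-identical copies, and their mRNA ends just after a stem-loop instead of in a poly(A) tail. The stem-loop binding protein, Slbp, holds that end. Several of these genes are also known to give polyadenylated transcripts from sites further downstream. In neurons, which no longer divide, chromatin is mostly supplied by replication-independent histone genes such as H3f3a, H3f3b and H2afz. Because the primers were poly-T, the counts here are of molecules with a run of A, not of the whole histone mRNA pool.

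The stem-loop sequences are shown because this element marks the end of replication-dependent histone mRNA. The histone 3′ stem-loop, a stem of 6 base pairs around a loop of 4 bases, was found within 100 bases after the coding end in 22 of the 26 genes (GENCODE M21 transcripts, build GRCm38). It was found there in 46 of 21068 protein-coding genes (0.218%), 44 of which (95.7%) have a symbol of the Hist1h to Hist4h families. The stem is in capitals and the loop in lower case.
Hist3h2ba: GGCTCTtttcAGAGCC
Hist2h2ac: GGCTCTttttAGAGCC
Hist1h3c: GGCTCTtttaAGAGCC
Hist1h4c: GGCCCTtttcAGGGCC
Hist1h4i: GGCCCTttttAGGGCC
Hist1h4b: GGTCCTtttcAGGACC
The first of these was shared by 15 genes, among them Hist3h2ba (chr11:58949349-58949364, plus strand), Hist3h2a (chr11:58955172-58955187, plus strand), Hist1h2ap (chr13:21833029-21833044, minus strand) and Hist1h1c (chr13:23739512-23739527, plus strand). It was the form of every H2A and H1 gene with a stem-loop except Hist2h2ac (chr3:96220418-96220433, minus strand). The stems of all 4 H4 genes differed from it, as in Hist1h4i (chr13:22040966-22040981, minus strand). None was found in that window for Hist1h2bc, Hist2h2be, Hist1h2ai and Hist1h2ak, of which the last 2 have no annotated bases after the coding end.

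The annotated transcripts differed in how far they run past the stem-loop. Hist1h2ap alone ends within 10 bases of it, 3 bases past. The other 21 run on for 23 to 4884 bases, with 169 bases in Hist3h2ba, 1643 in Hist3h2a and 840 in Hist1h1c. A poly(A) signal (AATAAA or ATTAAA, on the gene's strand) stood in the last 40 bases of 8 of the 26 transcripts, against 68.3% of all protein-coding genes. These 8 were Hist3h2ba, Hist3h2a, Hist2h2be, Hist1h1c, Hist1h4i, Hist1h2be, Hist1h2ae and Hist2h3c1. Of all counts in the 26 genes, 75.6% lay in stem-loop genes whose transcript runs past 10 bases and 16.7% in Hist1h2ap.

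Near-identical copies limit how far single genes can be told apart. Of the 50-base words in the Hist1h2ap transcript, 93.1% also occur in transcripts of other genes, and all words in its last 300 bases do, so its counts cannot be told from those of its copies such as Hist1h2ao, Hist1h2ag and Hist1h2ad. In 9 of the 26 genes at least 50% of the words are shared. In 12 genes, Hist3h2ba, Hist3h2a, Hist2h2be, Hist1h1c and Hist1h4i among them, no word of the last 300 bases is shared. Of the 26 genes, 12 overlap another annotated gene. Hist3h2a overlaps Trim17 on the same strand, and the Trim17 row held 33.8 to 111 CPM on the 15 plates. The sources used here do not say how reads in the shared stretch were assigned.

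Of the 26 genes, 20 lie on chromosome 13, 4 on chromosome 3 and 2 on chromosome 11. Promoters of the chromosome 11 pair are shown because both genes were the most abundant and varied together over the plates. That of Hist1h2ag, a gene counted mainly in G2/M wells, is shown for contrast. The windows hold 250 bases before and 50 after the start (RefSeq, GRCm38.p6), with the motif CCAAT, the TATA box (TATAAA) and the octamer ATTTGCAT in capitals on either strand. No 2 of these motifs share bases in the 3 windows.
Hist3h2ba (chr11:58948661-58948960, plus strand): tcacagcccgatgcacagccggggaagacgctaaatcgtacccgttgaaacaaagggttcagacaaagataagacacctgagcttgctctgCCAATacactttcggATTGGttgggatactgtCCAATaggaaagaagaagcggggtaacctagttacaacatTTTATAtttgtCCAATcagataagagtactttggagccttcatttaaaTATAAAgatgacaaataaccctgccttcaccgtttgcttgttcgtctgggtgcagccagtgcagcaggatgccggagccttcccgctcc
Hist3h2a (chr11:58954435-58954734, plus strand): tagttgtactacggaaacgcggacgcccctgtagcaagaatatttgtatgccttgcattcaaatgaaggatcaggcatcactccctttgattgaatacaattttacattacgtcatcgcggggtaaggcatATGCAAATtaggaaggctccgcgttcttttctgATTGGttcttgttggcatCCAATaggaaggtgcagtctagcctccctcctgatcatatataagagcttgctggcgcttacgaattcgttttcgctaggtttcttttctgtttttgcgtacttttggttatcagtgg
Hist1h2ag (chr13:22042900-22043199, minus strand): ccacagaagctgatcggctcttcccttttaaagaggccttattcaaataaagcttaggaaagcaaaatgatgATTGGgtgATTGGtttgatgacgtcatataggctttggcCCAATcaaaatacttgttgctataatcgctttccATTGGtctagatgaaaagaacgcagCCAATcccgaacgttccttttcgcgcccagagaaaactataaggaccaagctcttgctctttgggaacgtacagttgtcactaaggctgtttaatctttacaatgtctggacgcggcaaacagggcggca
CCAAT stood in 19 of the 21 windows matched to the 26 genes (90.5%), against 37.9% of all 27025 RefSeq promoter windows. At least 2 copies stood in 14 of 21 (66.7%), against 12.2%. TATAAA stood in 10 (47.6% against 14.2%) and ATTTGCAT, known from H2B promoters, in 5 (23.8% against 1.75%). Those 5 were the H2A genes Hist3h2a, Hist1h2ae, Hist1h2ac and Hist2h2ac and the H2B gene Hist1h2bk. The matched H2B genes Hist3h2ba, Hist1h2be and Hist1h2bj had none. The window of Hist1h2be (chr13:23621045-23621344) lies at the far start of a gene of 37455 bases. Its stem-loop, 29 bases after the coding end, lies at chr13:23585531-23585546. The motifs of that window, which is among the 19 with CCAAT, are thus not those of bases beside the coding stretch. Hist3h2ba had 4 CCAAT and 2 TATAAA and no ATTTGCAT. Hist3h2a had 2 CCAAT and 1 ATTTGCAT and no TATAAA. Hist1h2ag had 5 CCAAT and neither of the other motifs. Its window overlaps that of Hist1h2bj, which starts 269 bases away on the other strand.

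Most histone counts came from 3 genes. Hist3h2ba, an H2B gene, held 31.9% of the counts of the 26 genes, its neighbour Hist3h2a, an H2A gene, 30.8%, and Hist1h2ap, an H2A gene of the large cluster, 16.7%, together 79.4%. H2A genes held 50.4% of the counts and H2B genes 40.6%, against 3.32% for H1, 2.52% for H3 and 3.11% for H4. Of the other 23 genes, 21 had a median over the 15 plates under 5 CPM and 18 were at 0 on at least 1 plate.

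**Figure D1:**
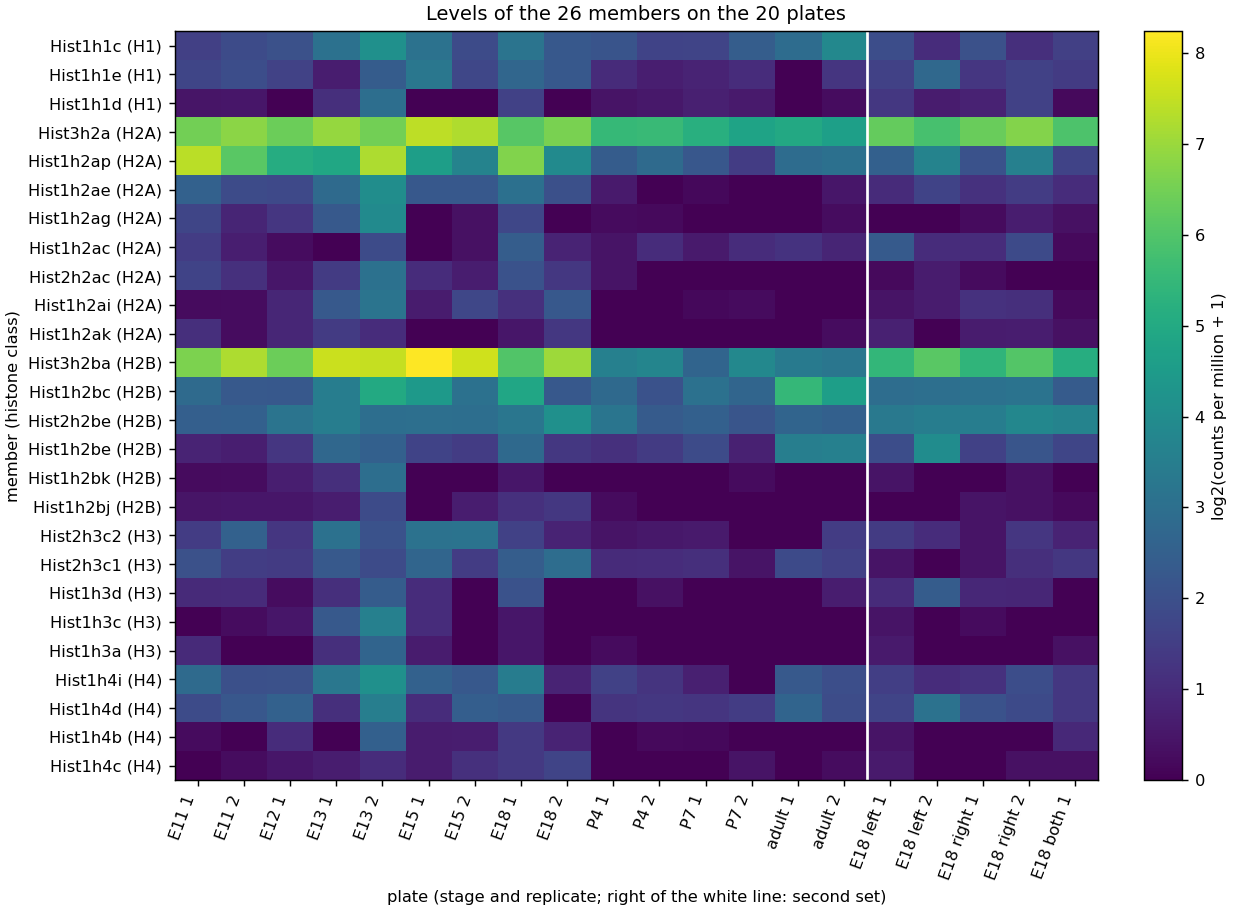
Level of each of the 26 histone genes (rows, by class) on the 20 plates (columns, by stage), in CPM of all kept wells. Hist3h2ba and Hist3h2a stand out on all embryonic plates, Hist1h2ap on some, and Hist1h2bc has its highest level on adult plate 1.

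Hist3h2ba measured 97.0 and 149 CPM on the plates at E11, 81.9 at E12, 191 and 183 at E13, 301 and 200 at E15 and 62.7 and 130 at E18. The P4 plates measured 11.0 and 12.4 CPM, the P7 plates 5.28 and 13.4 and the adult plates 9.23 and 8.35. The lowest embryonic plate stood above the highest postnatal one, and E15 was the highest stage. On the C57BL/6 plates at E18 it measured between 34.5 and 69.8 CPM, above all postnatal plates of the first set, with 2 of the 5 plates within the embryonic range. The tables of the sets were made separately, and no test was run across them.

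Hist3h2a measured 88.5 and 110 CPM at E11, 81.9 at E12, 122 and 88.2 at E13, 169 and 152 at E15 and 68.2 and 95.7 at E18. The P4 plates measured 45.1 and 46.9 CPM, the P7 plates 36.0 and 26.2 and the adult plates 30.3 and 24.3. Embryonic and postnatal plates did not overlap, but the step between them was smaller than in Hist3h2ba. The C57BL/6 plates lay between 56.2 and 104 CPM. Over the 15 plates, the levels of the pair had a Spearman correlation of 0.929, the highest that Hist3h2ba had with any of the other genes. All genes of a plate share its libraries and depth, so this is a description.

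Of the 3 abundant genes, Hist1h2ap differed most between the plates at E11, E13 and E18. It measured 165 and 68.7 CPM at E11, 33.3 at E12, 29.0 and 148 at E13, 23.3 and 11.9 at E15 and 102 and 14.3 at E18. It stayed between 1.76 and 7.16 CPM on the 6 postnatal plates and between 2.13 and 11.9 CPM on the C57BL/6 plates. The E13 plate with 148 CPM and the E18 plate with 102 CPM are the plates described above as standing apart, the first in the G2/M class and in choroid plexus and vascular markers, the second in progenitor markers. The part of these cells in the levels was not tested. The genes most like it over the 15 plates were Hist2h2ac (Spearman correlation 0.877) and Hist1h2ae (0.824), both H2A genes of low level, at 0.421 to 7.43 and 2.53 to 15.4 CPM on the embryonic plates and at most 0.339 and 0.509 CPM on the postnatal ones.

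**Figure D2:**
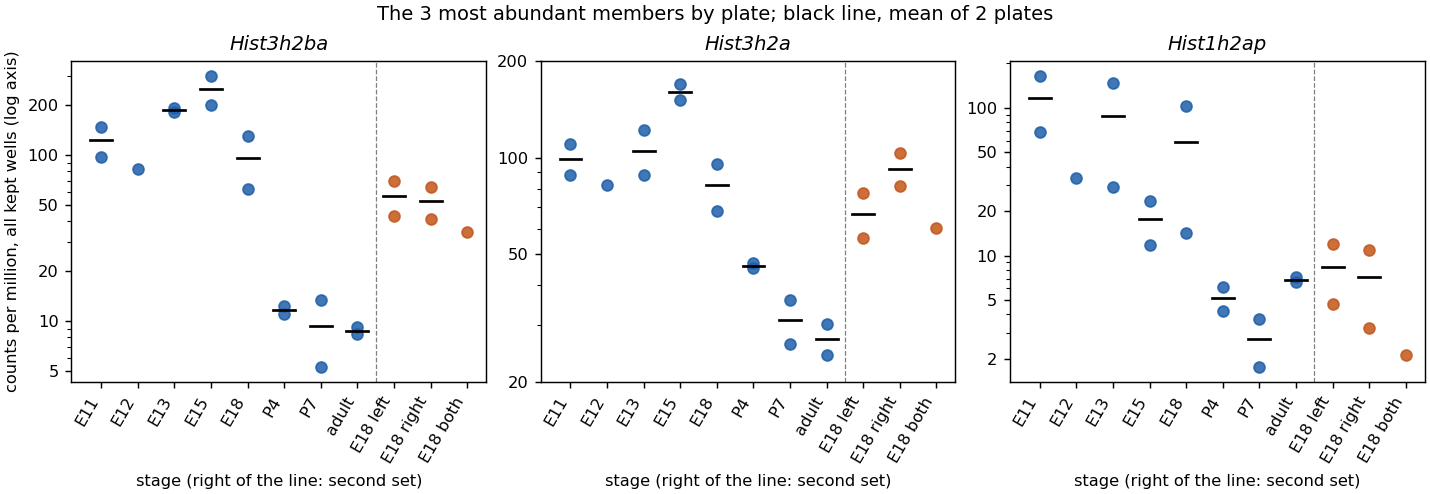
Levels of Hist3h2ba, Hist3h2a and Hist1h2ap by plate, in CPM of all kept wells on log axes, 1 point a plate, with a line at the mean of 2 plates. All 9 embryonic plates of the first set lie above its 6 postnatal plates in each gene, and the 2 plates at E13 and at E18 lie far apart in Hist1h2ap.

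Among the genes of intermediate level, Hist2h2be, an H2B gene with no stem-loop in the window searched, lay at 4.64 to 16.6 CPM on embryonic, 3.52 to 8.14 on postnatal and 9.12 to 13.0 on C57BL/6 plates. Hist1h2bc, the other such H2B gene, lay at 3.77 to 31.3 CPM on the embryonic plates and at 3.22 to 7.35 CPM at P4 and P7, and at 43.5 and 23.7 CPM on the adult plates. Adult plate 1 was the highest, and adult plate 2 lay under E13 plate 2 (31.3 CPM) and E18 plate 1 (28.3 CPM). Hist1h1c, a linker histone gene, lay between 1.93 and 16.5 CPM, with 13.5 CPM on adult plate 2. Hist1h4i, an H4 gene, lay between 0.753 and 16.5 CPM on embryonic plates and between 0 and 3.95 CPM on postnatal ones. Embryonic and postnatal plates overlapped in each of these 4 genes.

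The 3 abundant genes were spread differently over wells. At E11 to E18, Hist3h2ba was counted in 66.2% of 2102 wells, Hist3h2a in 57.8% and Hist1h2ap in 19.0%. The tenth of wells with the most counts held 37.0% of the counts of Hist3h2ba, 39.7% of Hist3h2a and 90.8% of Hist1h2ap. A single well reached 163 counts of Hist1h2ap, against 22.1 of Hist3h2ba and 15.0 of Hist3h2a. After birth the shares of wells with a count were 15.6%, 38.3% and 5.16%, in the same order of genes. With each well thinned to 2000 counts, which left out 5 to 20 wells of an embryonic and 2 to 19 of a postnatal plate, Hist3h2ba was seen in 10.8% to 42.0% of wells on embryonic plates and in 0% to 3.91% on postnatal ones. The thinned shares of Hist3h2a were 13.5% to 30.7% and 4.95% to 10.8%. Those of Hist1h2ap were 1.5% to 15.5% on embryonic and 0.309% to 2.70% on postnatal plates, so its ranges overlapped at matched depth.

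Wells were divided by 2 lists of 30 cell cycle genes each, which hold no histone gene. G2/M wells have at least 5 counts of the G2/M list per 10000, whatever their counts of the S-phase list. Noncycling wells have under 1 of that list and under 5 of the S-phase list. S-phase wells have under 5 of the G2/M list and at least 10 of the S-phase list. A well high in both lists is therefore in the G2/M class, so that class can hold cells in S phase. At E11 to E18 the G2/M class was 10.5% of the wells and held 81.3% of the Hist1h2ap counts. It held 5.94% of those of Hist3h2ba and 4.19% of those of Hist3h2a.

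G2/M wells were compared with noncycling wells of the same plate on the 7 plates with at least 10 wells of both. Hist1h2ap and 5 other genes were higher in G2/M wells, and the abundant pair Hist3h2ba and Hist3h2a was lower. Of the 9 genes with enough counts to be tested, 6 were higher and 2 lower past an adjusted p of 0.05 (edgeR quasi-likelihood test, Benjamini-Hochberg over all genes). Over all genes tested 21.9% were called, 9.77% higher and 12.1% lower. Of the 9 genes, 5 passed the filter only through the class in which they were high, so the count is a description and is not read against the share of all genes. Without E11 plate 1, 4 of 7 genes tested were called, where 12.9% of all genes were.

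Hist1h2ap rose from noncycling to G2/M wells on each of the 7 plates. The levels went from 17.6 to 2162 CPM and from 21.0 to 1616 CPM on the E11 plates, from 6.88 to 480 at E12, from 12.2 to 227 on E13 plate 1, from 16.6 to 250 on E15 plate 1, from 47.4 to 808 on E18 plate 1 and from 3.24 to 27.9 on adult plate 2. The mean went from 17.9 ± 14.4 to 796 ± 801 CPM (SD, n = 7 plates), with a log2 fold change of 5.01 ± 0.47 (SE, adjusted p = 4.04e-06). The E11 plates had the highest G2/M levels and the adult plate the lowest. In the C57BL/6 set, outside that test, the 3 plates with at least 10 wells of both classes went from 1.17 to 56.2, from 1.34 to 195 and from 0.238 to 47.4 CPM.

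**Figure D3:**
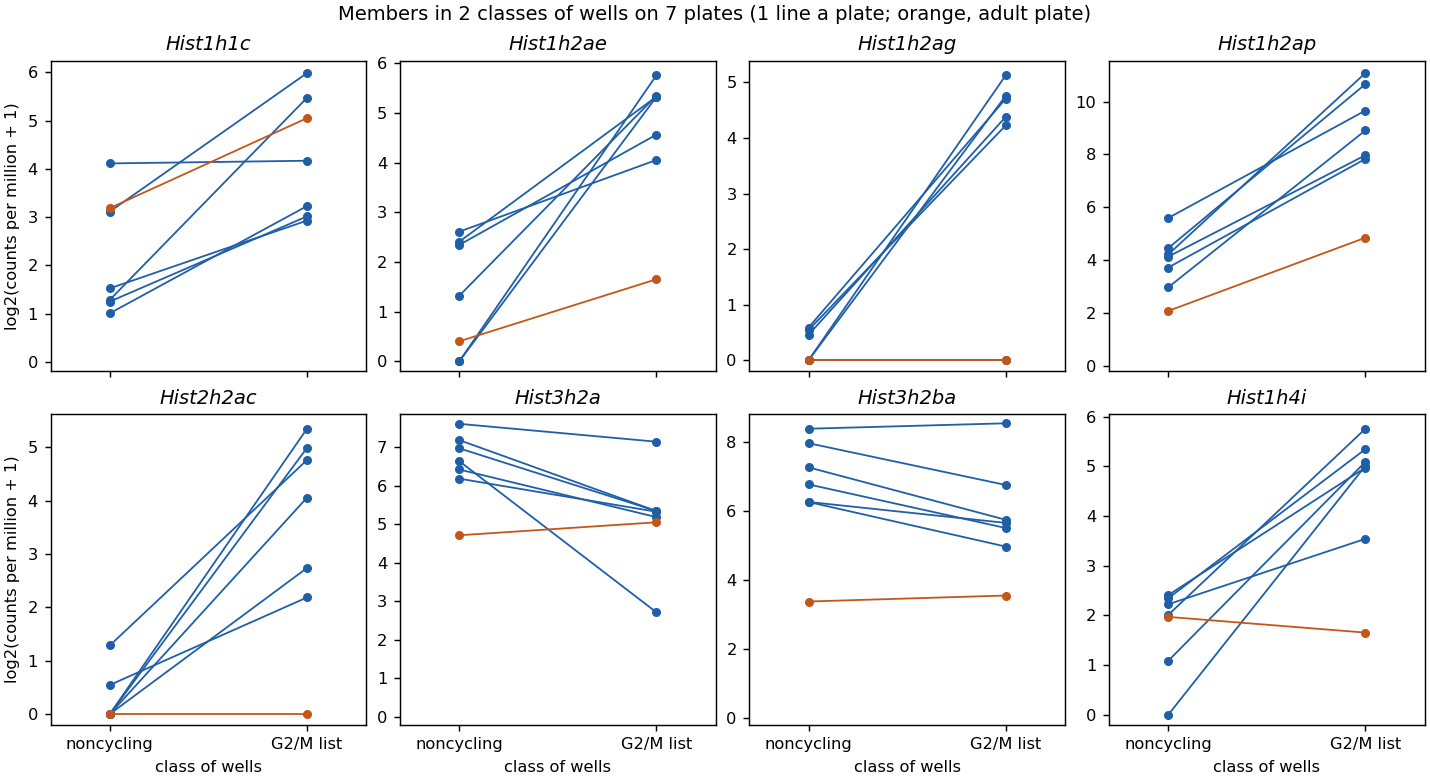
Levels in noncycling and G2/M wells of the same plate, as log2(CPM + 1), 1 line a plate (orange, adult plate 2), for the 8 histone genes called. Hist1h2ap rises on all 7 plates, while Hist3h2a is lower in G2/M wells on 6 of 7 plates and Hist3h2ba on 5 of 7.

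The other H2A genes that were higher had few counts in noncycling wells. Hist1h2ae had 14 counts in noncycling and 51 in G2/M wells, or 2.19 ± 2.24 and 30.2 ± 17.5 CPM (log2 fold change 4.05 ± 0.80 SE, higher on 7 of 7 plates). Hist1h2ag had 3 and 29 counts, a ratio of levels of 66.5 (95% counting interval 20.6 to 341), with G2/M wells higher on 5 of 7 plates and no count in either class on the other 2. Hist2h2ac had 2 and 26 counts, a ratio of 89.5 (22.4 to 778), higher on 6 of 7. These 3 genes and the 2 of the next paragraph that were called, Hist1h4i and Hist1h1c, passed the filter on low counts (24.3 CPM in at least 2 libraries) only through the G2/M wells in which they are high. They had to differ, so no p is given for them, although they stand in the count of 6 above. On the 3 C57BL/6 plates Hist1h2ae went from 0.583 to 0, from 2.23 to 5.72 and from 0.714 to 7.90 CPM, so 1 plate went the other way. Hist1h2ap passed without its G2/M wells. Hist1h2ag shares 78.9% of its 50-base words with other genes, so its counts are uncertain in the same way as those of Hist1h2ap.

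The H4 gene Hist1h4i went from 2.73 ± 1.60 to 28.6 ± 17.2 CPM (log2 fold change 2.89 ± 0.72 SE, higher on 6 of 7 plates). The linker histone gene Hist1h1c went from 5.40 ± 5.70 to 25.3 ± 21.6 CPM (2.17 ± 0.57, 7 of 7). The call of Hist1h4i was lost without E11 plate 1, and that of Hist1h1c with wells of at least 2000 counts and without the plate as a block. Hist1h2bc went from 13.6 ± 10.5 to 41.3 ± 35.3 CPM and did not pass (1.34 ± 0.54, adjusted p = 0.0915). In the C57BL/6 set, outside the test, Hist1h2bc went from 4.08 to 29.7, from 1.79 to 115 and from 1.90 to 19.7 CPM, higher in G2/M wells on all 3 plates. Hist1h4i and Hist1h1c were also higher there on all 3 plates, on 2 to 5 counts a plate in G2/M wells.

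The chromosome 11 pair moved the other way. Hist3h2a measured 98.9, 125, 84.9, 145, 194, 71.8 and 25.3 CPM in noncycling wells and 5.58, 39.7, 35.5, 39.7, 141, 39.1 and 32.2 CPM in G2/M wells of the 7 plates, in the order given for Hist1h2ap. Its log2 fold change was -1.39 ± 0.35 (SE, adjusted p = 0.0105), with the adult plate alone higher in G2/M wells. The G2/M level of Hist3h2a on E11 plate 1, 5.58 CPM, rested on 2 counts. Hist3h2ba measured 109, 154, 76.2, 251, 336, 76.1 and 9.40 CPM in noncycling and 44.7, 52.9, 49.6, 108, 375, 30.4 and 10.7 CPM in G2/M wells (-0.98 ± 0.25, adjusted p = 0.0103), with E15 plate 1 and the adult plate higher. Neither call held without the plate as a block (adjusted p = 0.0661 and 0.453), and that of Hist3h2ba was lost without E11 plate 1 (0.0573). With the cuts of the classes halved, the log2 difference of Hist3h2a was -0.24 (adjusted p = 0.376). In the C57BL/6 set Hist3h2a went from 77.9 to 72.7, from 111 to 57.2 and from 60.2 to 39.5 CPM, and Hist3h2ba from 43.4 to 26.4, from 64.4 to 17.2 and from 35.0 to 0 CPM.

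Other cell type markers moved with these classes. A list of 10 neuron markers was lower in G2/M wells on all 7 plates (median over plates 3718 against 11834 CPM). A list of 8 progenitor markers was higher on 6 of 7 (4130 against 624.5 CPM), and a vascular list on 7 of 7 (827 against 22.4 CPM). The plates' median counts per well were 4253 to 9856 in G2/M and 8874 to 16434 in noncycling wells. On adult plate 2, 21 of the 55 G2/M wells passed the gate on oligodendrocyte genes described below. Anln, a gene of cytokinesis, gave 15.9% of the counts of the G2/M list in the G2/M wells of that plate, against 1.24% to 3.60% on the other 6 plates. Without Anln in the list the class held 43 wells there, and 7 of 8 histone genes tested were called, where 23.5% of all genes were. Without the adult plates 8 of 10 histone genes tested were called, where 23.9% of all genes were. The part of these differences in the result was not tested.

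In the first set, S-phase wells numbered at least 10 on E18 plate 1 (22 wells) and adult plate 2 (11 wells) only, and no histone gene was called in them. Against noncycling wells 0 of 9 passed (edgeR), with 1 at an unadjusted p under 0.05 and 0 by DESeq2, where 0.197% of all genes were called. Against G2/M wells 0 of 9 passed as well, with 2 at an unadjusted p under 0.05 and 0 by DESeq2, where 0% of all genes were called. Over all 11165 genes tested, 1309 and 803 had an unadjusted p under 0.05 in these comparisons, in that order. Hist1h2ap measured 25.8 ± 2.53 CPM in S-phase, 25.3 ± 31.2 in noncycling and 419 ± 552 CPM in G2/M wells of those plates (n = 2). The S-phase levels were 27.6 and 24.0 CPM, against 47.4 and 3.24 CPM in noncycling wells of the E18 and the adult plate, so the plates went opposite ways. The log2 difference of Hist1h2ap between S-phase and G2/M wells was -4.52 ± 1.12 (SE, adjusted p = 0.370). Its S-phase level on the 2 plates rests on 7 counts, and why the difference did not pass was not tested. Pooled over all plates of the first set, without a test, Hist1h2ap measured 26.7 CPM (exact 95% Poisson interval 16.1 to 41.7) in 90 S-phase wells, 6.75 CPM (5.92 to 7.67) in noncycling and 552.8 CPM (527 to 579.6) in G2/M wells. Hist1h1c measured 23.9 CPM (13.9 to 38.2), 3.13 CPM (2.57 to 3.78) and 24.4 CPM (19.3 to 30.6). In the second set, where left plate 1 alone had at least 10 S-phase wells (15), the 29 S-phase wells held no count of Hist1h2ap (upper bound 11.1 CPM) and 2 of Hist1h1c, or 6.02 CPM (0.729 to 21.7). The G2/M wells of that set measured 112 CPM (91.0 to 137) of Hist1h2ap and 15.0 CPM (7.99 to 25.7) of Hist1h1c. The intervals cover counting error only, and the plates give different shares of each class. The G2/M class has no upper limit on the S-phase list, so these levels do not separate S phase from G2/M.

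Successive stages were compared over all kept wells of a plate, with 19 of the 26 genes tested. In such sums, fewer cells of a type and less RNA per cell cannot be told apart. Up to E18 no histone gene was called. From E11 to E13, 0 of 19 passed (edgeR; 6 at an unadjusted p under 0.05, 2 by DESeq2), where 1.45% of all genes did. From E13 to E15, 0 of 19 passed (4 at an unadjusted p under 0.05, 0 by DESeq2), where 0.0917% did. From E15 to E18, 0 of 19 passed (4 at an unadjusted p under 0.05, 1 by DESeq2), where 0.195% did. Over all 17453 genes tested, 3100, 2182 and 2997 had an unadjusted p under 0.05 in these steps, in that order. Hist3h2ba nonetheless went from 251 ± 71.0 to 96.1 ± 47.4 CPM from E15 to E18 (log2 difference -1.49 ± 0.43 SE, adjusted p = 0.146), and Hist3h2a from 160 ± 12.6 to 82.0 ± 19.4 CPM (-1.09 ± 0.28, adjusted p = 0.120), neither past the threshold.

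From E18 to P4, 4 of 19 genes fell and none rose, where 19.5% of all genes were called and 10.4% were lower. The share of histone genes called was near that of all genes called in either direction, and above that of genes lower. The median log2 difference was -2.14 in the 19 genes, of which 0 had a positive one, and -0.07 in all genes. Cell type markers moved with this step. The habenula neuron list measured 395 and 4480 CPM on the E18 plates and 6787 and 7718 CPM on the P4 plates, the progenitor list 4422 and 295 against 413 and 380 CPM, the vascular list 430 and 1355 against 156 and 28.0 CPM, and the astroglia list 1324 and 279 against 112 and 83.9 CPM. Their part in the result was not tested. Of the 19 genes, 3 that were not called (Hist2h2ac, Hist1h2ac and Hist1h3d) passed the filter on low counts only with the help of the E18 plates. Hist3h2ba fell from 96.1 ± 47.4 to 11.7 ± 0.988 CPM (SD, n = 2; log2 fold change -2.83 ± 0.47 SE, adjusted p = 0.00335). Without E18 plate 2 its log2 fold change was -2.04, and without E18 plate 1 -3.33, and it was called in both. Hist1h2ap fell from 58.4 ± 62.4 to 5.19 ± 1.34 CPM (-3.25 ± 0.87, adjusted p = 0.0263). Without E18 plate 1, the plate rich in progenitor markers, the log2 difference of Hist1h2ap was -1.32 (adjusted p = 0.447).

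The other calls from E18 to P4 rested on few counts. Hist1h2ae had 22 counts at E18 and 3 at P4, a ratio of levels of 23.8 (95% counting interval 7.14 to 124, adjusted p = 0.0202). Hist1h2ae and Hist1h2ai passed the filter through embryonic plates, so these calls are descriptions. Hist1h2ai had 8 counts at E18 and 0 at P4, at least 8.64-fold lower against a floor of 3 counts over the P4 plates (adjusted p = 0.0221). Leaving out 1 plate moved the log2 fold change of Hist1h2ae between -7.12 (without P4 plate 1, against a single plate with no count, so no bound) and -3.05 (without P4 plate 2), and it was not called without E18 plate 1 or without P4 plate 2. Hist1h2ai was not called without E18 plate 2 or without either P4 plate. Hist3h2a went from 82.0 ± 19.4 to 46.0 ± 1.28 CPM without passing (-0.62 ± 0.28, adjusted p = 0.133). With only the plates of the 2 stages in the fit 0 of 9 histone genes tested were called, where 3.58% of all genes were, with Hist3h2ba at an adjusted p of 0.0546. Without P4 plate 2, 1 of 23 was called (3.09% of all genes), without P4 plate 1, 2 of 23 (4.73%), and without E18 plate 1, 2 of 25 (8.51%).

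After P4 no histone gene was called over all wells. From P4 to P7, 0 of 19 passed (edgeR; 0 at an unadjusted p under 0.05, 0 by DESeq2), where 0.00573% of all genes did. From P7 to the adult, 0 of 19 passed (4 at an unadjusted p under 0.05, 2 by DESeq2), where 3.58% did. Over all 17453 genes tested, 3607 had an unadjusted p under 0.05 in this step, so the 4 of 19 histone genes were near the share of all genes. The 4 were Hist1h2be (1.70 ± 1.42 to 10.8 ± 0.414 CPM, adjusted p = 0.0707), Hist1h2bc (6.40 ± 1.34 to 33.6 ± 14.0 CPM, adjusted p = 0.134), Hist1h4i (0.322 ± 0.456 to 3.47 ± 0.688 CPM, adjusted p = 0.158) and Hist1h1c (3.29 ± 1.56 to 10.1 ± 4.90 CPM, adjusted p = 0.188). These 4 genes were named by their unadjusted p, so how their plates lie adds nothing to it. Of the Hist1h2be counts in the first set, 54.5% were unspliced, and the gene overlaps Hist1h1e and Gm11398 on the same strand. Hist1h4i measured 3.95 CPM on adult plate 1, which is 3 counts, and 0 CPM on P7 plate 2. Marker lists moved with this step too, the oligodendrocyte list from 184 and 168 CPM at P7 to 10304 and 2795 CPM in the adult and the astroglia list from 128 and 103 to 1112 and 663 CPM, and their part was not tested. With only the plates of the 2 stages in the fit 1 of 10 genes tested was called, where 4.75% of all genes were.

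The 26 genes summed measured 380 ± 22.3 CPM at E11, 515 ± 130 at E13, 491 ± 110 at E15, and 316 ± 33.3 at E18 (SD, n = 2 plates each). After birth the sum was 85.5 ± 2.20 CPM for P4, 64.5 ± 5.09 for P7 and 116 ± 13.3 for adult plates. The 3 abundant genes held 79.4% of the counts pooled over the first set, but not most of the sum on the adult plates. There Hist3h2a measured 30.3 and 24.3 CPM, Hist3h2ba 9.23 and 8.35 and Hist1h2ap 6.59 and 7.16. The higher sum of the adult than of the P7 plates lay in the other 23 genes. Of these, Hist1h2bc measured 7.35 and 5.45 CPM at P7 and 43.5 and 23.7 CPM in the adult. The other 23 genes together were higher on both adult plates than on either E11 plate, and lower than these at P4 and P7. The single E12 plate measured 236 CPM. The C57BL/6 plates at E18 measured 181 ± 21.7 CPM on the left and 193 ± 44.3 on the right, and 128 CPM with both sides, all under the E18 plates of the Brn3a-tauLacZ line. The set, the strain and the table differ together there, and cannot be told apart.

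Wells with at least 1 count of Pou4f1 that were noncycling were compared alone (13 plates with at least 10 such wells; E12 was not in the fit and plate 2 at E13 had none). From E11 to P4, 4 of 13 histone genes tested fell and none rose, where 29.7% of all genes were called and 13.6% were lower. The share of histone genes called was near that of all genes called in either direction, and above that of genes lower. The median log2 difference was -1.31 in the 13 genes and 0.02 in all genes.

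Hist3h2ba measured 108 and 156 CPM in these wells at E11 and 10.9 and 12.5 CPM at P4. The mean fell from 132 ± 34.1 to 11.7 ± 1.10 CPM (log2 fold change -3.45 ± 0.36 SE, adjusted p = 1.42e-05). Its level between those stages was 254 CPM on E13 plate 1, 336 and 199 at E15 and 110 and 131 at E18. The P7 plates gave 5.74 and 13.2 CPM and the adult plates 8.09 and 7.70. All embryonic plates were above all postnatal ones. E15 plate 1 was highest, and E15 plate 2 lay under the single E13 plate.

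Hist3h2a measured 99.9 and 125 CPM at E11, 142 at E13, 194 and 149 at E15 and 114 and 94.4 at E18. The P4 plates gave 41.8 and 44.3 CPM, the P7 plates 37.1 and 28.3 and the adult plates 16.2 and 20.9. From E11 to P4 it fell from 112 ± 17.5 to 43.1 ± 1.75 CPM (log2 fold change -1.34 ± 0.22 SE, adjusted p = 0.000573). Hist1h2ap fell from 19.4 ± 2.05 to 1.27 ± 0.452 CPM (-3.83 ± 0.63, adjusted p = 0.000508), on 89 and 11 counts. Hist1h2bc fell from 6.03 ± 3.07 to 0.697 ± 0.0222 CPM (-2.96 ± 1.00, adjusted p = 0.0393) on 26 and 6 counts, and its call was lost without any 1 of the 4 plates, at adjusted p of 0.0733 to 0.238.

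Later stages gave no call in these wells. From P4 to P7, 0 of 13 passed (edgeR; 0 at an unadjusted p under 0.05, 0 by DESeq2), where 0.00623% of all genes did. From P7 to the adult, 0 of 13 passed (3 at an unadjusted p under 0.05, 0 by DESeq2), where 4.87% did. Over all 16051 genes tested, 3312 had an unadjusted p under 0.05 in this step. Hist3h2a came nearest, from 32.7 ± 6.22 to 18.6 ± 3.33 CPM (log2 difference -0.83 ± 0.27 SE, adjusted p = 0.0989). The adult level rests on 14 and 117 wells.

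The 2 neighbours on chromosome 11 changed by different amounts, so the ratio of their counts differed between stages. Counts of Hist3h2ba over those of Hist3h2a were 1.10 and 1.35 at E11, 1.00 at E12, 1.57 and 2.07 at E13, 1.78 and 1.32 at E15 and 0.918 and 1.35 at E18. The P4 plates gave 0.244 and 0.265, the P7 plates 0.147 and 0.510 and the adult plates 0.304 and 0.344. All 9 embryonic plates stood above all 6 postnatal ones. The mean log2 ratio differed by -2.25 after birth. The ratio was chosen after the values were seen, so it is given as a description with no test.

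In Pou4f1-positive noncycling wells of 8 embryonic and 6 postnatal plates the difference was -2.01. Over all wells without any 1 plate it lay between -2.42 and -2.06. The C57BL/6 plates at E18 had ratios of 0.557, 1.24, 0.508, 0.618 and 0.570, so 4 of these 5 plates lay under every embryonic plate of the first set (lowest 0.918), and 0.508 lay within the range of its postnatal plates. The Trim17 row, which shares bases with Hist3h2a, had 51.2% to 205% of the Hist3h2a counts by plate, with values of at least 120% on all postnatal plates and of at most 86.5% on the embryonic plates other than E12. The part of reads shared with Trim17 in the ratio was not tested.

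**Figure D4:**
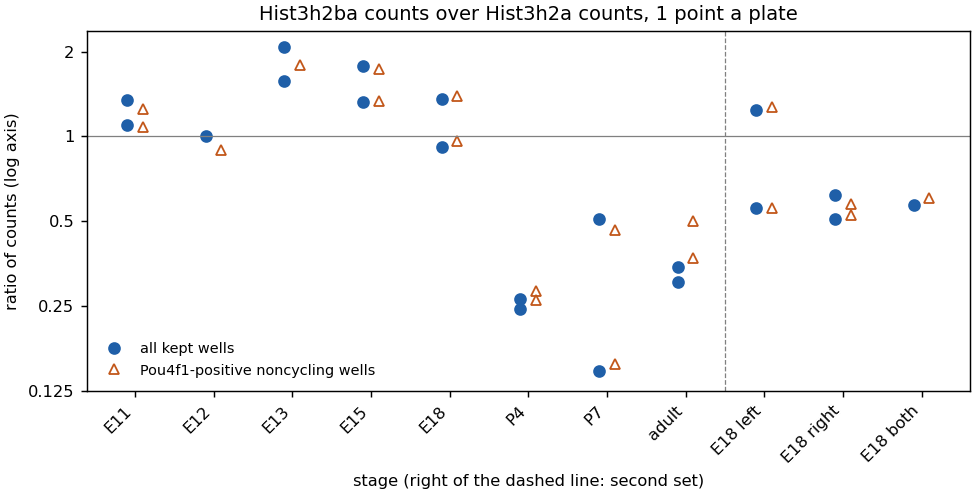
Counts of Hist3h2ba over counts of Hist3h2a on each plate (log axis), over all kept wells (filled points) and over Pou4f1-positive noncycling wells (open triangles), by stage. The embryonic plates of the first set lie between 0.918 and 2.07 over all wells and the postnatal plates between 0.147 and 0.510.

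On adult plate 2, Hist1h2bc and Hist1h1c were higher in wells with oligodendrocyte or vascular markers than in Pou4f1-positive noncycling wells. Wells were gated by marker lists, as oligodendrocyte-list wells (at least 50 counts per 10000 of a list of oligodendrocyte genes such as Mbp, a gene of myelin) and vascular-list wells (at least 20 per 10000 of a list with Cldn5 and Rgs5, genes of endothelium and pericytes). Oligodendrocyte-list wells numbered 27 on adult plate 1 and 54 on plate 2, and the list's level over the plate was 10304 and 2795 CPM, against 184 and 168 CPM at P7. On plate 2, 49 vascular-list wells and 117 Pou4f1-positive noncycling wells had median depths of 3525 and 21670 counts, and 54 oligodendrocyte-list wells 6718. On plate 1 the gates overlapped, with Pou4f1 counted in 6 of the 27 oligodendrocyte-list wells and 3 of the 6 vascular-list wells also past the oligodendrocyte gate. On plate 2, 3 of the 54 and 2 of the 49 wells had a count of Pou4f1, and no well passed both list gates. The list gates took wells of any cycle class, while the Pou4f1-positive wells were noncycling only. Of the 54 oligodendrocyte-list wells of plate 2, 21 were in the G2/M class. The part of the cycle class in the levels was not tested. These are values of single plates, with exact 95% Poisson intervals that cover counting error only, and without a test.

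Hist1h2bc measured 142 CPM (92.5 to 207) in oligodendrocyte-list wells of adult plate 1 and 119 CPM (87.4 to 158) in those of plate 2. In vascular-list wells it measured 156 CPM (106 to 221) on adult plate 2 and 154 CPM (104 to 220) in 16 such wells of P7 plate 1. In Pou4f1-positive noncycling wells it measured 1.83 CPM (0.595 to 4.28) on adult plate 2 and had no count on plate 1, where the upper bound was 7.46 CPM. The intervals of the first 2 gates did not overlap that of the Pou4f1-positive wells.

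Hist1h1c measured 4.03 CPM (2.01 to 7.22) in the Pou4f1-positive, 25.3 CPM (12.1 to 46.6) in the oligodendrocyte-list and 125 CPM (81.2 to 185) in the vascular-list wells of adult plate 2. On plate 1, Hist1h1c had no count in Pou4f1-positive wells (upper bound 7.46 CPM) and measured 10.9 CPM (1.32 to 39.3) in oligodendrocyte-list wells, with overlapping intervals. On plate 2, Hist1h2be measured 6.97, 25.3 and 25.1 CPM and Hist3h2a 20.9, 50.6 and 40.1 CPM, in the same order. Unspliced counts made up 54.5% of the Hist1h2be counts of the first set. Hist3h2ba measured 7.70 and 17.7 CPM in the first 2 gates and had no count in the third (upper bound 18.5 CPM). Members summed came to 55.4, 271 and 406 CPM. The gates differ in cycle class and in counts per well, as given above, and CPM is relative to those counts.

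**Figure D5:**
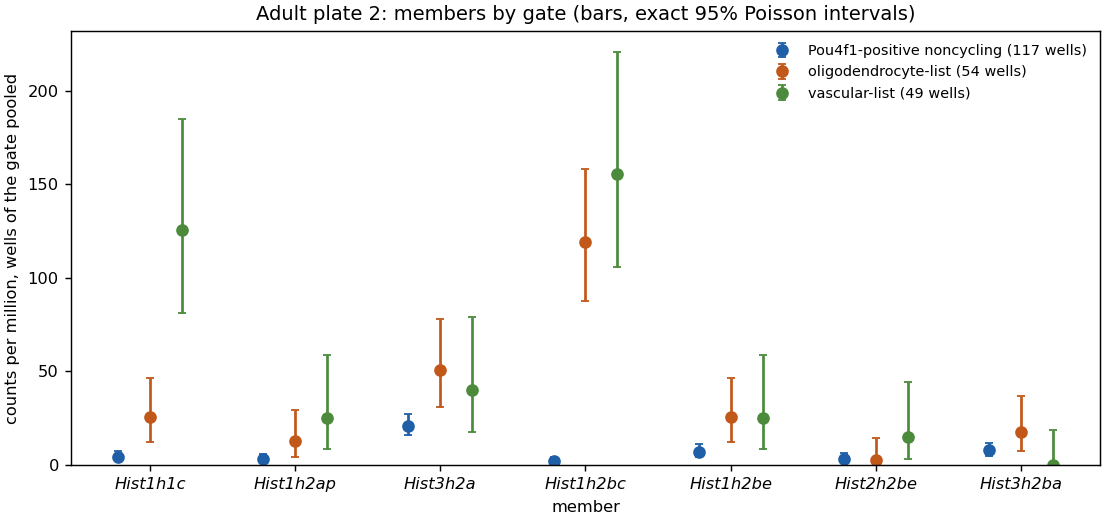
Levels of 7 histone genes in 3 gates of wells of adult plate 2, in CPM of the pooled wells, with exact 95% Poisson intervals as bars. Hist1h2bc lies at 119 CPM in oligodendrocyte-list and 156 CPM in vascular-list wells and at 1.83 CPM in Pou4f1-positive noncycling wells.

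No difference between left and right habenula at E18 was detectable in a histone gene at this depth. Of 9 genes tested 0 passed (edgeR; 0 at an unadjusted p under 0.05, 0 by DESeq2), where 0% of all genes were called. Hist3h2a measured 77.4 and 56.2 CPM on the left, 81.3 and 104 CPM on the right and 60.4 CPM on the plate of both sides (log2 difference, right minus left, 0.42 ± 0.22 SE, adjusted p = 1). Hist3h2ba measured 43.1 and 69.8 CPM on the left and 41.3 and 64.0 CPM on the right (-0.10 ± 0.28, adjusted p = 1). The plates of 1 side differed by about as much as the sides did in Hist3h2a, and by more in Hist3h2ba. Globin transcripts of a list of erythroid genes reached 19048 and 17219 CPM on the left plates against 3410 and 265 CPM on the right, and their part was not tested.

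Genes that work with histones were counted in the same fits. Among 15 chaperones, which hand histones to chromatin, 8 were higher in G2/M than in noncycling wells and none lower, where 9.77% of all genes were higher and 12.1% lower. Among the 8 were Asf1b (log2 fold change 3.85), Chaf1b (3.01) and Chaf1a (2.45), parts of the machinery that loads new histones behind the replication fork. Among 11 genes tested of a list called replication-independent histone genes here, 6 were higher. The list was fixed beforehand, and whether each of its genes is replication-independent was not tested. Cenpa, the H3 variant of centromeres, went from 4.84 to 265 CPM (log2 fold change 5.71), H2afx from 40.3 to 264 CPM (2.44, adjusted p = 3.14e-06) and H2afz from 38.6 to 124 CPM (1.58, adjusted p = 0.000657). The mean noncycling levels of Asf1b, Chaf1b, Chaf1a and Cenpa were under the 24.3 CPM of the filter, so no p is given for them. The counts of 8 and 6 hold these genes, so they are descriptions and are not read against the share of all genes. Of 9 genes tested of a fixed list called histone mRNA processing here, 1 was higher, Casp8ap2, which works at the histone locus body.

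From E18 to P4, where 10.4% of all genes were lower and 19.5% called, 4 of 11 replication-independent histone genes fell over all wells, H2afz (-2.34, adjusted p = 0.00680), H3f3a (-1.70, adjusted p = 0.00423), H1f0 (-1.38) and H2afv (-1.36). Of 10 genes of the processing list 2 fell, Upf1 (-0.76) and Cpsf3 (-0.52), a share near that of all genes called. Of 15 chaperones 0 were called (edgeR). In Pou4f1-positive noncycling wells from E11 to P4, 13.6% of all genes were lower and 29.7% called. Of 11 genes of the replication-independent list 4 fell there, H2afx (-1.46), H3f3a (-1.25), H1fx (-1.13) and H2afy2 (-0.80). H3f3b, which codes for the same histone H3 variant as H3f3a, rose from 522 to 975 CPM (0.94, adjusted p = 0.0119). Of 15 chaperones 4 fell there, Hira, which deposits that protein (-1.23), Supt16 (-0.76), Asf1a (-0.67) and Ubn1 (-0.59), a share near that of all genes called. Of 10 genes of the processing list 1 fell, Upf1 (-0.88).

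From P7 to the adult, where 3.58% of all genes were called over all wells, 2 of 11 replication-independent histone genes fell, H2afy2, a macroH2A gene (log2 fold change -1.73, adjusted p = 0.0199), and H3f3b, from 781 to 367.5 CPM (-1.20, adjusted p = 0.0211). The part of the higher oligodendrocyte and astroglia lists of the adult plates, given above, in these falls was not tested. Of 10 processing genes 1 fell, Lsm11, a part of the particle that processes histone mRNA ends (-2.13, adjusted p = 0.0417), and of 15 chaperones 0 were called (edgeR). In the Pou4f1-positive noncycling wells, where 4.87% of all genes were called, 3 of 11 replication-independent genes fell, H2afy2 (-1.66), H3f3a (-1.46) and H3f3b (-1.19). Lsm11 (-1.88) was again the 1 of 10 processing genes that fell, and of 15 chaperones 0 were called.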

How the data were processed

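Single cells of the mouse habenula on 20 CEL-seq2 plates were analysed. The authors deposited tables of expected counts, with wells as columns: values are molecule counts corrected for identifier collisions. Inverting that correction over 4096 possible identifiers gave whole numbers for 100% of values (tolerance 1e-06), against 46.1% of the values as deposited in the first set's table. STAR 2.5.3a, Trim Galore and mm10 are named in the submitters' processing notes. The sources used here do not give the counter, the annotation, the sequencing run of each plate or any removal of doublets. Doublets were not called; leaving out the 82 wells above 3 times their plate's median counts was an alternative.

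Counts were summed per plate, or per plate and class of wells, and rounded to whole numbers, since the test planned for raw counts needs them. Sums were tested with edgeR 4.0.16 (filterByExpr, TMM, quasi-likelihood test, Benjamini-Hochberg over all genes tested, threshold 0.05), in R 4.3.3, with the plate as a block for classes of wells. DESeq2 1.42.0 was an alternative, as were other normalization and filters, leaving out each plate, wells of at least 2000 counts, other cuts of the classes and fits of only the groups compared. The script was tested on simulated data. Sequences were searched with Python 3.11.15, and pandas 2.3.3 and scipy 1.17.1 were used for tables and exact intervals. ± is the SD over plates for levels and the SE for log2 fold changes. PCR and capture are not covered by counting intervals.

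Values by plate were given for genes with at least 200 counts, and for genes past the threshold in a comparison, at most 12. Of the related genes, the 6 with the largest change among those past the threshold were named in a comparison, and, outside that rule, all those in a count of 5 or fewer. The genes and lists were chosen with earlier results of these data known. The G2/M list without Anln, fits without adult plates, the gate without oligodendrocyte-list wells and the ratio of Hist3h2ba to Hist3h2a were added after seeing the data.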

Additional observations from a re-analysis of the deposited data

Results flagged for a closer look

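Unspliced counts, which entered no comparison on their own, were found in 2 of the 26 genes. Hist1h2bc had 53.0 unspliced counts (9.09% of its counts) and Hist1h2be had 91.0 (54.5%), against 23.1% over all genes. No unspliced count was listed for the other 24. Both genes have 2 annotated exons, and Hist1h2be overlaps Hist1h1e and Gm11398 on the same strand. Of the 6 genes whose differences over 7 plates could be tested for a plate far from the others, none was marked.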

How the results depend on the processing

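In all, 496 alternatives were computed for 38 results. Of these, 452 kept their direction and side of the threshold, stayed within 1.5 times the count or, for summed levels, within the SD of the plates. A further 22 calls were lost, 22 values moved and 0 reversed. The tally holds the ratio of Hist3h2ba to Hist3h2a and genes that passed the filter only through the group in which they are high. For these, given above as descriptions, it is no support. The fall of Hist3h2ba, Hist1h2ap and Hist3h2a from E11 to P4 in Pou4f1-positive noncycling wells held in 16 of 16 alternatives each (log2 -3.69 to -3.15, -4.25 to -3.49 and -1.49 to -1.17), and the rise of Hist1h2ap in G2/M wells in 20 of 20 (4.66 to 5.70). From E18 to P4 Hist3h2ba held in 12 of 13 and Hist1h2ap in 9 of 13. The cause was not tested for the changes below, beyond the other numbers of genes that other filters test. Counts of histone genes called follow, each with the share of all genes called under the same setting. With no filter on low counts, of 26 tested, they were 4 from E11 to E13 (4.56%), 3 from E13 to E15 (3.32%), 3 from E15 to E18 (3.89%), 3 from P7 to the adult (4.7%) and 1 for S-phase against G2/M wells (0.395%). By DESeq2, of 19 tested, they were 2 from E11 to E13 (6.3%), 1 from E15 to E18 (4.55%) and 2 from P7 to the adult (8.24%). With only the plates of the 2 stages they were 0 of 9 from E18 to P4 (3.58%) and 1 of 10 from P7 to the adult (4.75%). For G2/M against noncycling wells they were 5 of 9 without the plate block (6.79%), 1 of 2 with the class cuts halved (18.4%), and 3 of 3 with at least 5 wells per class, with (33.8%) or without (34.8%) the adult plates. For S-phase against G2/M wells 1 of 3 was called with at least 5 wells per class, with (0.971%) or without (1.59%) the adult plates. Leaving out 1 plate at a time gave 0 to 2 from E15 to E18, the 2 of 24 without E18 plate 2 (10.5%), 1 to 4 from E18 to P4, 3 to 3 from E11 to P4 in Pou4f1-positive wells and 4 to 9 for G2/M wells, the 4 of 7 without E11 plate 1 (12.9%). The adult level of the members summed was 147 CPM without wells above 3 times the plate median. Plates of the same number did not pair across stages (21 pairs of stages, correlation of deviations -0.363 to 0.250, 4 over 0.1). With the replicate number as a block, 4 genes were again called from E18 to P4, and no other of the 10 counts moved past 1.5 times. Depth limits the rarer genes, and 7 of the 26 had too few counts to enter the stage fits.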
